A study of Mus musculus with 5 samples.

Results

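Pi16 fibroblasts are the connective tissue cells of the outer sheath of vessels and ducts. In these data they were picked by transcripts alone, and 978 of 5915 kept cell barcodes met the rule, 689 of 3529 in early KIC and 289 of 2386 in normal pancreas. A barcode was kept with at least 200 genes and at most 20% mitochondrial UMIs (unique molecular identifiers, 1 per captured transcript). It then needed at least 30 UMIs per 10000 of Col1a1, Col1a2, Col3a1 and Dcn together, 0 UMIs of the leukocyte gene Ptprc, and at most 2 UMIs of 4 mesothelial genes (Upk3b, Lrrn4, Gpm6a, Nkain4). Among these gated fibroblasts, the members had at least 2 UMIs of Pi16, Mfap5, Ptx3, Has1 and Dpp4 together, and more of these than of Cxcl14, Ptn, Lpl, Mest and Dpep1. Gated fibroblasts in which the second group of 5 genes had at least 2 UMIs and outnumbered the first are called Cxcl14 fibroblasts here. They numbered 611 in early KIC and 101 in normal pancreas, and 73 and 4 gated cells fell in neither class.

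The adventitia holds fibroblasts that make Pi16, a secreted peptidase inhibitor, and Dpp4, a membrane dipeptidase. Fibroblasts of this kind occur in many mouse organs and are known for loose, elastic and hyaluronan-rich matrix and for surface proteins such as Ly6a and Cd34. The fibroblasts between the acini and lobules of the pancreas form a second population with more basement membrane genes.

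Early KIC was an early invasive pancreatic tumour of the KIC mouse model, taken at 40 days of age, and the normal pancreas was taken at 60 days. Both came from untreated mice on a mixed C57BL/6 and FVB background, and the labels name no allele. Each group had 1 library, made with the 10x Genomics 3′ kit (version 2 chemistry), so that tumour, age, depth and library cannot be told apart, no test of conditions was possible, and intervals below cover counting error only. The series also holds 3 late tumours, in which only 38, 24 and 56 cells met the rule.

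The libraries differed before any gene was compared. Members had a median of 1982 UMIs and 961 genes per cell in early KIC and 5583 UMIs and 1911 genes in normal pancreas, although their summed depths were close (1492850 and 1660545 UMIs). No early KIC member had a UMI of a Y-linked gene, and 624 had Xist. The normal members included 61 with a Y-linked UMI and no Xist, 173 with Xist and no Y-linked UMI, and 1 with both, so the normal library held transcripts of both sexes. The 2 libraries shared 11 barcodes, none of them a member in both. Doublets were not removed. Acinar transcripts were found in every member, with 37 genes summing to 41245 CPM (UMIs per 1000000 of the summed class) in early KIC and 47594 CPM in normal pancreas.

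The genes behind the name were present, as the rule required of most of them. In summed UMIs, Pi16 had 1129 CPM in early KIC members and 3502 CPM in normal members. Mfap5, a microfibril glycoprotein, had 2633 CPM in early KIC and 3966 CPM in normal pancreas, and Ptx3, a pentraxin of the hyaluronan matrix, had 1295 CPM in early KIC and 1714 CPM in normal pancreas. Has1, a hyaluronan synthase, had 1116 CPM in early KIC and 1783 CPM in normal pancreas, and Dpp4 had 125 and 249 CPM. All 5 score genes had fewer CPM in early KIC members, and these values chose the members, so they are a description only. Dpt, a dermatopontin gene that the rule did not use, had 1243 CPM in early KIC and 1710 CPM in normal pancreas, against 174 and 58.2 CPM in the other kept cells of each library. It set the members little apart from Cxcl14 fibroblasts, with log2 ratios of 0.59 in early KIC and 0.46 in normal pancreas. Cells with Ptprc were set beside the members for comparison. UMIs seen in them can be free RNA, doublets or their own transcripts, and these were not told apart. After thinning every barcode to 1000 UMIs, Pi16 was seen in 49.6% of early KIC members and 2.76% of the Ptprc-positive cells of that library, and in 79.2% of normal members and 2.65% of Ptprc-positive cells (unthinned, 62.7% and 5.17% in early KIC, 92.4% and 8.33% in normal pancreas; median depths of the Ptprc-positive cells 1942.5 and 3763 UMIs).

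**Figure D1:**
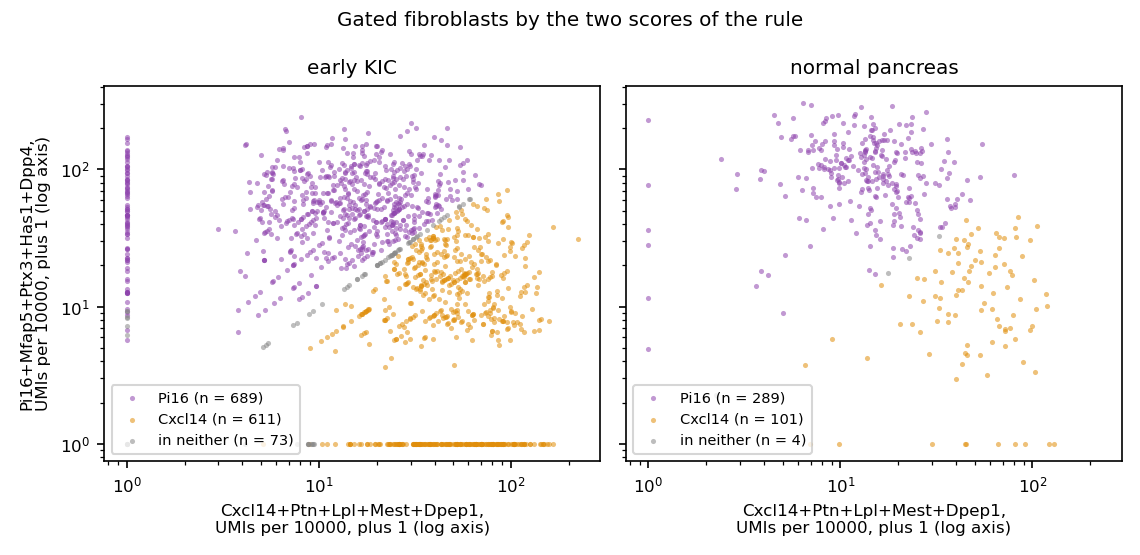
Each point is a gated fibroblast of early KIC (left) or normal pancreas (right); the axes are the summed UMIs per 10000 of the 5 genes of each score, plus 1, on log axes, and colour gives the class. The 689 Pi16 fibroblasts of early KIC sit lower on the vertical axis (median 54.8 per 10000) than the 289 of normal pancreas (median 95.3 per 10000), and in early KIC the classes meet without a gap.

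The boundary of the class was well populated in early KIC and thinly populated in normal pancreas. In early KIC, 50 members exceeded the opposing score by 1 UMI, 59 Cxcl14 fibroblasts did so the other way, 47 gated cells had equal scores of at least 2 UMIs, and 6 had 1 UMI of the score and none of the opposing one. The same counts in normal pancreas were 3, 3, 3 and 0. Members with only 2 or 3 UMIs of the score numbered 49 in early KIC and 2 in normal pancreas, and those with at least 10 made up 58.5% and 96.9%. The transcripts of the opposing score that members carried were mostly Lpl, the lipoprotein lipase gene, with 711 CPM in early KIC and 745 CPM in normal pancreas, and Dpep1, a dipeptidase gene, with 438 and 696 CPM, while Cxcl14 itself had 51.6 and 23.5 CPM.

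Pi16 fibroblasts made up 50.2% of the gated fibroblasts of early KIC (exact binomial 95% interval 47.5 to 52.9%) and 73.4% of those of normal pancreas (68.7 to 77.7%). As a share of all kept barcodes the order was the other way, 19.5% in early KIC (18.2 to 20.9%) and 12.1% in normal pancreas (10.8 to 13.5%). Gated fibroblasts were 38.9% of kept barcodes in early KIC and 16.5% in normal pancreas. Thinning to 1000 UMIs gave 45.4% of gated cells in early KIC and 67.7% in normal pancreas.

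The question of what sets Pi16 fibroblasts apart from their closest neighbours was asked within each library, where age, genotype and preparation are shared. Of 7116 genes with at least 20 UMIs in each library's pair of classes, score and gate genes left out, 175 (2.46%) had at least 2-fold more CPM in Pi16 than in Cxcl14 fibroblasts in both early KIC and normal pancreas, and 164 (2.30%) had at least 2-fold less. Because the score genes were measured in the same cells, genes that accompany them are a description of the class and no test of it.

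Nov (Ccn3), a matricellular protein gene, had 113 CPM in Pi16 and 4.71 CPM in Cxcl14 fibroblasts of early KIC, and 341.5 and 21.2 CPM in normal pancreas. Sfrp4, a secreted Wnt antagonist, had 362 and 36.8 CPM in early KIC and 433 and 35.3 CPM in normal pancreas. The ratios of Sfrp4 were thus alike in both tissues, 9.84-fold and 12.3-fold. Tnfrsf11b, the decoy receptor of RANKL, had 63.0 CPM against 3.77 CPM in early KIC and 88.5 CPM against 0 in normal pancreas. Its ratio was 16.7-fold in early KIC and at least 12.5-fold in normal pancreas, where a count of 0 was set to 3 counts over the class. Sema3c and Sema3e, secreted guidance proteins, were both on the higher side: Sema3c was 8.49-fold higher in early KIC and 8.64-fold in normal pancreas, and Sema3e, with no UMI in Cxcl14 fibroblasts of either tissue, at least 5.92-fold and at least 6.74-fold.

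A run of neighbouring epidermal genes on chromosome 7 of GRCm38 was among the 12 genes named for this side. Sbsn (suprabasin, 30751471 to 30756134), Dmkn (dermokine, 30763756 to 30781063) and Krtdap (keratinocyte differentiation-associated protein, 30787896 to 30791097), all on the plus strand, lie within the same short stretch. Sbsn had 176 CPM in Pi16 and 21.7 CPM in Cxcl14 fibroblasts of early KIC, and 378 and 16.5 CPM in normal pancreas. Dmkn had 123 and 8.48 CPM in early KIC and 90.3 and 0 CPM in normal pancreas. Krtdap had 56.3 and 0 CPM in early KIC and 172 and 11.8 CPM in normal pancreas. All 3 were thus found mainly in the Pi16 class in both tissues, and each had fewer than 30 CPM in the remaining kept cells of either library. Cmah, which makes the sialic acid Neu5Gc, Anxa3, an annexin, Efhd1, a mitochondrial calcium-binding protein gene, and Duoxa1, a maturation factor of dual oxidase, completed the 12, with ratios between 7.04-fold and 15.7-fold, those of Cmah being 11.4-fold in early KIC and at least 12.9-fold in normal pancreas.

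On the other side, Dlk1, a non-canonical Notch ligand, had 2.68 CPM in Pi16 and 68.8 CPM in Cxcl14 fibroblasts of early KIC and 4.22 and 49.4 CPM in normal pancreas. Smoc2, a calcium-binding matrix protein gene, had 118 and 701 CPM in early KIC and 152 and 833 CPM in normal pancreas. Nmb, the neuromedin B peptide gene, Serpine2, a protease inhibitor, Crispld2, G0s2, an inhibitor of the lipase ATGL, Ifitm1, Sept4 and Adamtsl2 were also at least 4-fold lower in Pi16 fibroblasts of both tissues, from 4.70-fold for G0s2 in early KIC to 22.5-fold for Sept4 in normal pancreas. Adap2, its antisense transcript Adap2os and Ndufa4l2 completed the set. The labels do not say whether counting used strand, so reads of Adap2 and Adap2os may not be told apart.

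**Figure D2:**
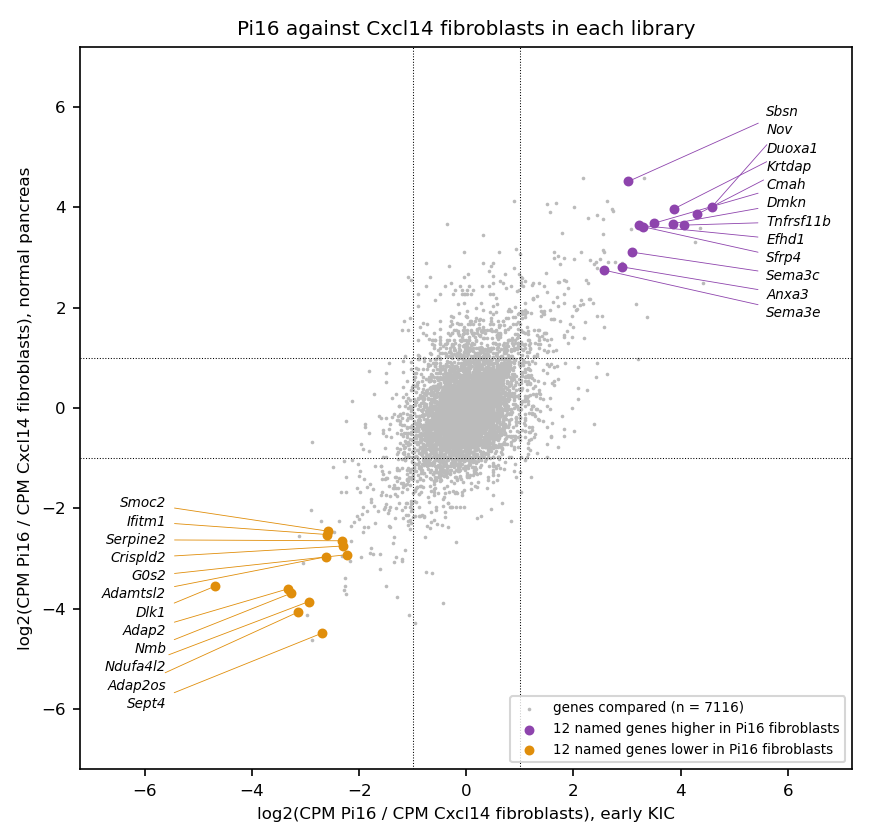
Each grey point is 1 of 7116 genes; the axes are log2 of CPM in Pi16 over CPM in Cxcl14 fibroblasts, in early KIC (horizontal) and in normal pancreas (vertical), dotted lines mark 2-fold, and 0 counts were set to 3. The 12 named genes on either side lie beyond 2-fold on both axes.

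A list of 40 adventitial fibroblast genes, none of them in the rule, followed the class. This list and the next were chosen with earlier results of these data known, so their values describe the class and do not test it. Of 36 members with enough UMIs, 28 were at least 2-fold higher in Pi16 than in Cxcl14 fibroblasts in both tissues and none was at least 2-fold lower in both, with median log2 ratios of 1.78 in early KIC and 2.09 in normal pancreas (all genes, 0.01 and -0.04). A list of 31 genes of the parenchymal kind of fibroblast ran the other way, with 0 of 29 higher and 14 lower (medians -0.80 and -1.61). Per cell, the adventitial list took a median of 201 UMIs per 10000 in Pi16 and 81.8 in Cxcl14 fibroblasts of early KIC, and 307 and 89.6 in normal pancreas. The quartiles of the Pi16 class, 129 to 294 in early KIC and 222 to 380 in normal pancreas, lay above those of the Cxcl14 class, 53.6 to 114 and 68.5 to 128.

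The tumour comparison set the 689 early KIC members against the 289 normal members. Of 8713 genes with at least 20 UMIs over both, 691 (7.93%) had at least 2-fold more CPM in early KIC and 477 (5.47%) at least 2-fold less, and the median log2 ratio over all genes was 0.02. The same comparison of Cxcl14 fibroblasts gave 573 of 6622 genes higher (8.65%) and 357 lower (5.39%).

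Within this background the adventitial list stood lower in early KIC. Of its 38 genes with enough UMIs, 17 were at least 2-fold lower, 1 was at least 2-fold higher and 20 lay between, and the list's median log2 ratio was -0.83. In Cxcl14 fibroblasts 3 of 28 were lower and 2 higher, and the median was -0.46 (all genes, -0.01). The list summed to 20252 CPM in early KIC members and 30482 CPM in normal members, while in the other kept cells it summed to 3040 CPM in early KIC and 1083 CPM in normal pancreas. Early KIC members with a stronger score had more of the list: it summed to 13635, 20494 and 27288 CPM over the lowest, middle and highest tercile of early KIC members by score per 10000, and to 22385, 32823 and 34709 CPM over the terciles of normal members. The same score chose the members, and its quartiles over all members differed, 36.9 to 85.1 per 10000 in early KIC and 61.9 to 138 in normal pancreas. A floor on the score was therefore tried after the data had been seen, without matching the score between tissues. Among members with at least 50 UMIs per 10000 of the score (389 in early KIC and 238 in normal pancreas), the list's median was -0.68.

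Several of these genes encode proteins at the cell surface or bound to ligands. Cd55, the decay-accelerating factor that restrains complement, had 204 CPM in early KIC members and 522 CPM in normal members, 2.56-fold lower (95% interval 2.24 to 2.92). Ackr3, a scavenger receptor for Cxcl12, had 332 CPM in early KIC and 756 CPM in normal pancreas, 2.28-fold lower (2.05 to 2.53). Opcml, a GPI-anchored adhesion protein gene, had 61.0 and 193 CPM, 3.16-fold lower in early KIC (2.50 to 4.04). Cd34, a sialomucin used to sort such fibroblasts, was within 2-fold, with 583 CPM in early KIC and 1032 CPM in normal pancreas. Ly6a (1943 and 1769 CPM), Cd248 (520.5 and 453.5 CPM) and Ly6c1 (1231 and 935 CPM), also surface genes of this population, were no lower in early KIC.

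The insulin-like growth factor binding proteins of the list were lower as well. Igfbp5 had 239 CPM in early KIC and 682 CPM in normal pancreas, 2.85-fold lower (2.53 to 3.22), and Igfbp6 had 1360 and 2842 CPM, 2.09-fold lower (1.98 to 2.20). The Igfbp5 values of Cxcl14 fibroblasts were 59.4 CPM in early KIC and 42.4 CPM in normal pancreas. Among secreted signals, Bmp7, a bone morphogenetic protein, had 16.8 and 60.8 CPM, 3.63-fold lower in early KIC (2.33 to 5.88), and Nov was 3.02-fold lower (2.54 to 3.60). The largest ratios on the list were those of 3 genes also known from neurons. Stmn4, a microtubule regulator of the stathmin family, had 14.1 CPM in early KIC and 109 CPM in normal pancreas, 7.75-fold lower (4.92 to 12.8), Car8, a carbonic anhydrase relative without enzyme activity, was 6.00-fold lower (4.02 to 9.28), and Gap43, the growth-associated protein of axons, 5.34-fold lower (3.12 to 9.72). Fbn1, the fibrillin-1 gene, had 1331 CPM in early KIC and 1286 CPM in normal pancreas, and Tnxb, the tenascin-X gene, 421 and 438 CPM. Clec3b, tetranectin, had 3711 and 5633 CPM, a difference of 1.52-fold. The single higher member was Plac9b, with 99.8 CPM in early KIC and 36.1 CPM in normal pancreas, a gene with a close copy, Plac9a (11.4 and 13.9 CPM), between which reads could be split.

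**Figure D3:**
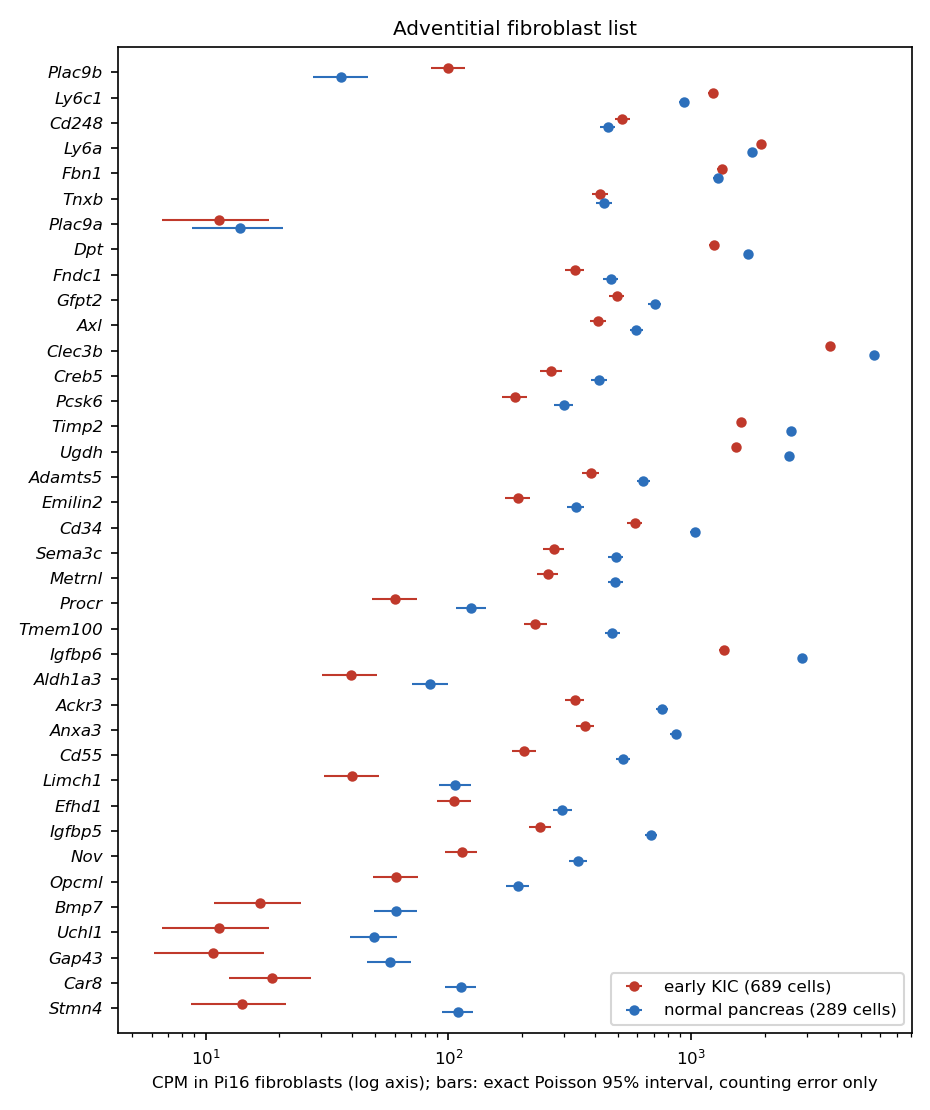
CPM of the 38 adventitial list genes with enough UMIs in Pi16 fibroblasts of early KIC (red, upper point of each row) and normal pancreas (blue, lower point), log axis, with exact Poisson 95% intervals, ordered from the highest to the lowest ratio. Most genes are farther left in early KIC, and Stmn4 at the bottom has 14.1 CPM in early KIC and 109 CPM in normal pancreas.

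Outside the list, the 15 lower genes whose interval lay farthest from 1 included several regulators. Dbp, a transcription factor of the circadian output, had 4.02 CPM in early KIC and 109 CPM in normal pancreas, 27.1-fold lower (12.2 to 74.9). Over the 15 clock genes with enough UMIs, 6 were lower and 2 higher (median log2 ratio -0.77). In Cxcl14 fibroblasts 6 of 12 clock genes were lower and 0 higher (-0.98). In the other kept cells Dbp had 22.5 CPM in early KIC and 15.3 CPM in normal pancreas. The hour of tissue collection is not given. Ctgf (Ccn2), a matricellular target gene of YAP and TGF-beta, had 18.1 and 227 CPM, 12.6-fold lower in early KIC (8.49 to 19.3), and in Cxcl14 fibroblasts 21.7 CPM in early KIC and 70.6 CPM in normal pancreas. Ackr4, a scavenger receptor for chemokines such as Ccl19 and Ccl21, had 4.69 and 66.2 CPM, 14.1-fold lower (6.63 to 36.0). Inmt, an amine methyltransferase gene, was 13.1-fold lower (7.12 to 26.7) in Pi16 fibroblasts and 9.55-fold lower in Cxcl14 fibroblasts. Arl4a, a small GTPase gene, Dact2, an inhibitor in Wnt and TGF-beta signalling, Chst1, a carbohydrate sulfotransferase gene, Lrrn4cl, Rgs6, Pianp, Gpr1 and Pla2g2e completed the lower set with Stmn4 and Car8. C1rb headed it by interval, with 3.35 CPM in early KIC and 98.2 CPM in normal pancreas, but C1ra (309.5 and 301 CPM) is a near-identical copy, so the split of reads between them is uncertain. Among these 15 lower genes, only Lrrn4cl and Arl4a were seen in most normal members, 253 and 250 of 289. Ctgf was seen in 74 normal members, and the 10 highest cells held 185 of its 377 UMIs. Inmt was seen in 59, with 72 of 160 UMIs in the 10 highest cells, and Ackr4 in 58, with 48 of 110. The intervals do not cover such spread between cells.

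The genes higher in early KIC differed in how many members carried them. C4b, a complement component (chromosome 17, 34728380 to 34743882, minus strand, GRCm38), was broad: 586 UMIs were spread over 305 of 689 early KIC members, and the 10 highest cells held 11.9% of them. It had 393 CPM in early KIC and 12.7 CPM in normal pancreas, 31.0-fold higher (20.1 to 50.5). At 1000 UMIs per cell, C4b was seen in 28.6% of early KIC members and 1.38% of normal members, beside 7.93% and 1.52% of Ptprc-positive cells in the same libraries (unthinned, members 44.3% and 5.19%, Ptprc-positive cells 11.7% and 2.27%). Chl1, a neural cell adhesion protein gene, was seen in 111 early KIC members and 6 normal members (8.42% and 0.346% at 1000 UMIs per cell), with 107 and 3.61 CPM, 29.5-fold higher (13.3 to 81.5), and in 0 of 290 early KIC and 0 of 264 normal Ptprc-positive cells. At this depth that allows up to 1.26% and 1.39% of such cells with a Chl1 UMI (exact binomial), which limits cells with a UMI and not cells expressing the gene. Igf1, insulin-like growth factor 1, had 444 CPM in early KIC and 54.2 CPM in normal pancreas, 8.19-fold higher (6.57 to 10.3), and at 1000 UMIs per cell it was seen in 23.7% of early KIC members and 5.54% of normal members, beside 4.83% and 0.379% of Ptprc-positive cells. Igf1 was highest in the cells with the weakest score, at 693, 324 and 294 CPM over the terciles of early KIC members from the lowest score up, and 130, 34.0 and 13.0 CPM over those of normal members. In Cxcl14 fibroblasts the ratios of these genes were smaller, 5.23-fold for C4b, 5.21-fold for Chl1 and 2.27-fold for Igf1. The Cxcl14 class of normal pancreas held only 101 cells and 424887 UMIs, which limits the precision of these ratios. The difference between the classes was not tested.

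Other genes came from few cells. Saa3, an acute-phase serum amyloid, had 433 CPM in early KIC and no UMI in normal pancreas, at least 239.5-fold higher, but its 646 UMIs lay in 34 of 689 members, 1 cell held 325 of them and the 10 highest cells 88.5%. At 1000 UMIs per cell, Saa3 was seen in 3.92% of early KIC members and in 3.45% of that library's Ptprc-positive cells, with overlapping intervals (2.60 to 5.65% and 1.67 to 6.25%). Tnc, the tenascin-C gene, had 71 UMIs in 16 early KIC members and 1 UMI in normal members, a ratio of 79.0 (13.7 to 3163). All 55 UMIs of Gm15284, which the naming rule also picked, were in 1 cell. Timp1, an inhibitor of matrix metalloproteinases, lay between: 912 UMIs in 207 members, 45.8% of them in the 10 highest cells, with 611 CPM in early KIC and 41.6 CPM in normal pancreas, 14.7-fold higher (11.5 to 19.1).

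**Figure D4:**
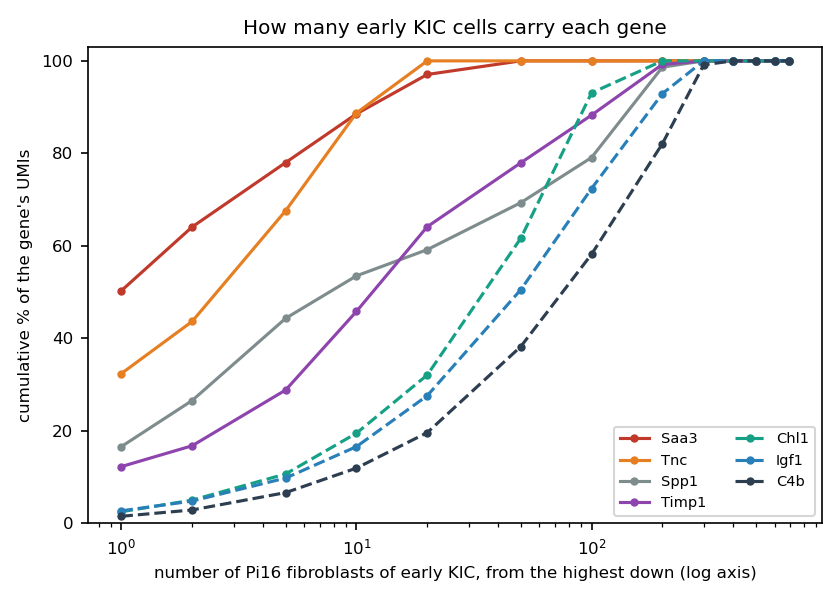
Cumulative percent of a gene's UMIs (vertical) over the Pi16 fibroblasts of early KIC taken from the highest cell down (horizontal, log axis), for 7 genes higher in early KIC. The curves of Saa3 and Tnc pass 88% by 10 cells, and C4b reaches 11.9% there.

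Of the 15 genes named as higher, 10 had a level more than 2-fold higher in the other kept cells of early KIC than in the members themselves: Spp1, Ppy, Reg3a, Lyz2, Reg3b, Wfdc17, Rbp7, Reg3g, Il1b and C1qa. Spp1, osteopontin, had 343 CPM in early KIC members and 1.20 CPM in normal members, beside 2620 and 77.9 CPM in the other kept cells. Lyz2, a lysozyme of macrophages, had 295 and 4.22 CPM in members and 3750 and 231 CPM in the other kept cells. All 9 macrophage markers with enough UMIs were higher in early KIC members, and the whole list of 12 summed to 641 CPM in early KIC, with no marker at 0, and to 19.9 CPM in normal pancreas, with 2 at 0. At least 1 such UMI was found in 385 early KIC members (55.9%) and 28 normal members (9.69%), and at least 5 in 21 and 0. The part of free RNA and doublets in these values was not tested. Endocrine markers summed to 4609 CPM in early KIC members and 729 CPM in normal members, endothelial markers to 285 and 75.3 CPM, epithelial markers to 354 and 272 CPM, lymphocyte markers to 14.1 and 16.3 CPM, mesothelial markers, with 2 of 4 genes higher, to 313 and 185 CPM, Schwann cell markers to 26.8 and 17.5 CPM, and pericyte and smooth muscle markers to 53.6 and 39.1 CPM. Without the members that had a macrophage marker UMI, 304 early KIC and 261 normal cells were left, and 495 genes were higher and 590 lower.

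Fibrillar collagen and matrix genes were shifted upwards in early KIC: 8 of 29 passed 2-fold upwards and 1 downwards, and their median log2 ratio was 0.57. Besides Tnc and Timp1 these included Thbs1, thrombospondin-1, with 1485 CPM in early KIC and 303 CPM in normal pancreas, Bgn, biglycan, with 1002 and 332 CPM, Pcolce, an enhancer of procollagen processing, with 1013 and 426 CPM, and Col5a1 with 352 and 146 CPM. Timp3 was the lower one, with 199 CPM in early KIC and 507 CPM in normal pancreas. The gate gene Col1a1, used by the rule, had 2870 CPM in early KIC and 926 CPM in normal pancreas, whereas the gate gene Dcn had 5300 and 10905 CPM. Of 18 elastic fibre and microfibril genes, 3 were higher and 1 lower (median 0.22). Fbn2, the fibrillin of developing tissue, had 61 UMIs in 51 early KIC members and 1 UMI in normal members, a ratio of 67.9 (11.7 to 2723), and Lox, lysyl oxidase, had 168 and 74.7 CPM. Efemp1, fibulin-3, had 487 CPM in early KIC and 1633 CPM in normal pancreas, 3.35-fold lower (3.09 to 3.64). Eln, the elastin gene, was alike, with 433 and 360 CPM. Tnfaip6, a hyaluronan-binding protein of inflammation, had 1417 and 1103 CPM, and Ugdh, which makes a hyaluronan precursor, had 1533 and 2516 CPM. Of 29 parenchymal list genes, 6 were higher in early KIC members and 3 lower (median -0.01), the higher ones including the basement membrane collagens Col4a1 (683 and 175 CPM) and Col15a1 (153 and 59.6 CPM).

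Of 22 inflammatory fibroblast genes, 9 were higher in early KIC and 1 lower (median 0.65), beside 7 of 21 higher and 1 lower in Cxcl14 fibroblasts (0.74). Of the 9 in Pi16 fibroblasts, 3 had a level more than 2-fold higher in the other kept cells. Il6, the interleukin-6 gene, was not among the 9, with 746 CPM in early KIC and 488 CPM in normal pancreas, nor was Cxcl1, a neutrophil chemokine, with 3295 and 1858 CPM. The chemokine Ccl7 had 1247 CPM in early KIC and 603 CPM in normal pancreas, Il1r1, the interleukin-1 receptor, 67.7 and 24.1 CPM, and Osmr, the oncostatin M receptor, 109 and 46.4 CPM. Il33, an alarmin, had 301 CPM in early KIC and 310 CPM in normal pancreas. Ccl11, the eosinophil chemokine eotaxin-1, was the lower member, with 723 CPM in early KIC and 1814 CPM in normal pancreas in Pi16 fibroblasts and 1262 and 3239 CPM in Cxcl14 fibroblasts. Among 14 complement genes 8 were higher and 2 lower (median 1.46), beside 7 of 15 higher and 1 lower in Cxcl14 fibroblasts (0.998). Of the 8 in Pi16 fibroblasts, 3 were the C1q chains of macrophages. Without members carrying macrophage markers the complement median was 0.48. C3, the central complement component, had 2623 CPM in early KIC and 985 CPM in normal pancreas, 2.66-fold higher (2.51 to 2.82), and Cfb, complement factor B, had 77.7 and 22.3 CPM. Cd55, on this list too, was the other lower gene beside C1rb.

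Growth factor genes gave 10 higher and 4 lower of 22 (median 0.78), and 2 of the 10 had a level more than 2-fold higher in the other kept cells. With a strict score, which left 15 normal cells, the median was 0.20. Apart from Igf1, the higher ones included Igfbp3 (99.1 CPM in early KIC and 23.5 CPM in normal pancreas), Gas6, the ligand of Axl (92.4 and 30.1 CPM), Vegfa (67.7 and 25.9 CPM), Kitl, stem cell factor (77.0 and 35.5 CPM), and Igfbp7 (2844 and 1238 CPM). Pdgfra, the receptor that marks most fibroblasts, was alike, with 217 CPM in early KIC and 195 CPM in normal pancreas. Among 9 retinoid genes 4 were higher and 1 lower (median 0.92): Aldh1a2, which makes retinoic acid, had 204 CPM in early KIC and 45.2 CPM in normal pancreas, 4.51-fold higher (3.49 to 5.89), Rdh10 had 117 and 44.0 CPM, and Aldh1a3, which catalyses the same step and belongs to the adventitial list, had 39.5 and 84.3 CPM. After thinning, the retinoid median was 0.29. TGF-beta and BMP genes gave 1 higher and 3 lower of 26 (median -0.17). Bmper, a BMP-binding regulator, had 58.3 CPM in early KIC and 9.03 CPM in normal pancreas, Tgfb2 had 54.3 and 146 CPM, and Bmp2 had 18.8 and 73.5 CPM. Of 26 fibroblast transcription factors 2 were higher and 1 lower (median -0.27), no more than the shares of 7.93% and 5.47% over all genes. Runx1 had 51.6 CPM in early KIC and 11.4 CPM in normal pancreas, Klf2, a factor responsive to shear stress in vessel cells, 443 and 1466 CPM, and Prrx1 169 and 191.5 CPM.

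The UMIs of 2 contractile genes, Acta2 and Tagln, lay in few early KIC members. Acta2, smooth muscle actin, had 28.8 CPM in early KIC and 1.20 CPM in normal pancreas, and Tagln, transgelin, 41.5 and 5.42 CPM, 2 of 12 contractile genes that were higher, beside 1 lower (median 0.39, and -0.22 among members with at least 50 score UMIs per 10000). In Cxcl14 fibroblasts 4 of 9 contractile genes were higher and 0 lower (median 0.77). The 16 members with a Tnc UMI, a set chosen after the values were seen and given without a test, held 79.1% of the Acta2 UMIs, 77.4% of the Tagln UMIs and 36.3% of the Timp1 UMIs. They had a median of 3616.5 UMIs per cell, against 1972 in the other 673 members. In these 16 cells Pi16 had 186 CPM, against 1171 CPM in the other members, Clec3b 217 and 3869 CPM, Ly6a 155 and 2024 CPM, and Efemp1 31.0 and 508 CPM, while Mfap5, a score gene, had 1965 and 2663 CPM. The 14 members with at least 5 Saa3 UMIs held 9 of the 71 Tnc UMIs and none of the 62 Tagln UMIs. Among the terciles by score, 62 of the 71 Tnc UMIs and 38 of the 43 Acta2 UMIs were in the lowest.

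Since the normal members held transcripts of both sexes and the early KIC members had no Y-linked UMI, the early KIC values were also set against each normal set. Within normal pancreas, 150 of 6008 genes (2.50%) were at least 2-fold higher in the 61 Y-linked cells than in the 173 Xist cells and 440 (7.32%) lower. Of the 17 lower adventitial genes, 10 were at least 2-fold below both normal sets in early KIC members. All 17 were below both, but the sets are parts of the normal members that had marked these genes as lower. The list's median was -0.68 against the Y-linked set and -0.86 against the Xist set. On the higher side, 4 of 9 inflammatory, 6 of 10 growth factor and 1 of 4 Wnt pathway genes were at least 2-fold above both sets. The same held for 7 of 8 complement, 6 of 8 fibrillar collagen and matrix and 4 of 4 retinoid genes. Here too the sets are parts of the normal members that had marked these genes as higher, so the counts are no test. Of all 691 genes higher in early KIC, 404 (58.5%) were called higher again against the Y-linked set alone. C4b had 20.9 CPM in the Y-linked set and 9.60 CPM in the Xist set, Igf1 65.9 and 53.8 CPM, and Timp1 29.9 and 50.9 CPM, all far from their early KIC values. Il6 was not separated in this way: its early KIC level of 746 CPM lay between 847 CPM in the Y-linked set and 343 CPM in the Xist set. Dbp differed between the normal sets, with 41.9 CPM in the Y-linked set and 148 CPM in the Xist set.

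**Figure D5:**
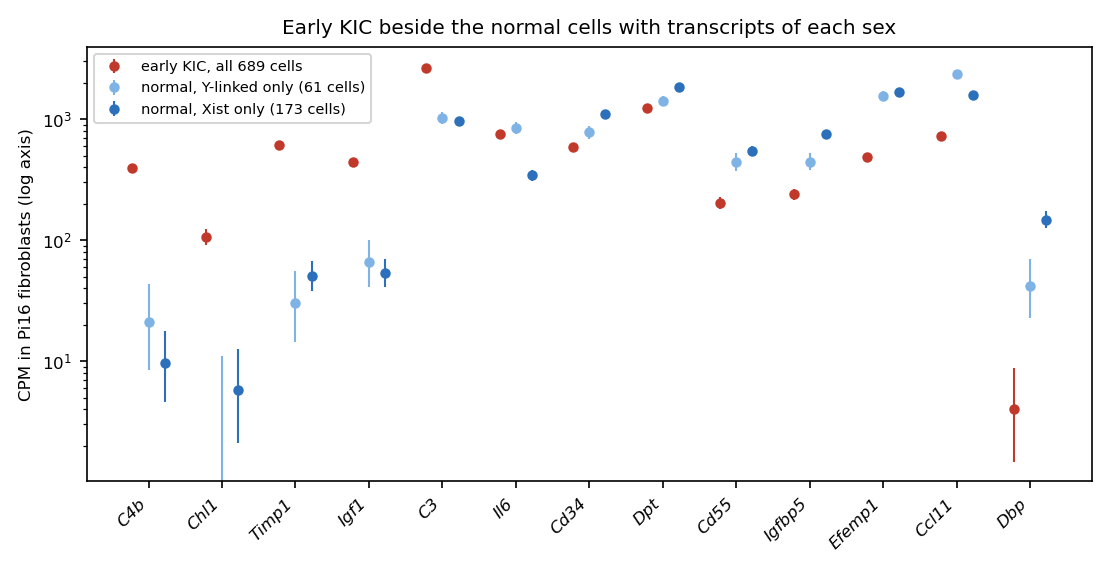
CPM of 13 genes (log axis, exact Poisson 95% intervals) in Pi16 fibroblasts of early KIC (red) and in normal members with Y-linked UMIs alone (light blue) or Xist alone (dark blue). C4b, Chl1, Timp1, Igf1 and C3 are above both normal sets in early KIC, Cd55, Igfbp5, Efemp1, Ccl11 and Dbp below both, and Il6 lies between; Chl1 had no UMI in the Y-linked set, so its bar alone is drawn.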

How the data were processed

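Droplet 3′ RNA sequencing gave 1 UMI count matrix per library. The authors deposited these counts as whole UMIs per gene and barcode, and the submitters' processing notes name Cell Ranger 2.1.1 and GRCm38. The annotation release was not given in the sources used here, and neither was the use of strand. Libraries held 3534 barcodes and 8313769 UMIs (early KIC) and 2644 barcodes and 14768787 UMIs (normal pancreas). Genes were told apart by Ensembl identifier, since 56 symbols occur more than once, and positions are from GENCODE on GRCm38. Members and gene lists were chosen with earlier results of these data known.

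UMIs were summed over the cells of a class and scaled to CPM. With 1 library per group there is no test and no p-value. Intervals are exact at 95% (Poisson for levels, binomial for shares, conditional for ratios), and a count of 0 was set to 3 in ratios. Genes with at least 20 UMIs over the classes compared entered a comparison, and at least 2-fold counted as higher or lower. For early KIC over normal pancreas the text names the 15 genes per direction whose nearer interval bound lies farthest from 1. For Pi16 over Cxcl14 fibroblasts it names 12 per direction by the same bound, taken from the library in which that bound gives the smaller difference. Both choices leave out rule, acinar, haemoglobin, sex-linked, mitochondrial and ribosomal protein genes. All other named genes come from the lists or were chosen after their values were seen, Chl1, Igf1, Timp1, Fbn2 and the Tnc-positive cells among them. The mirrored rule for Cxcl14 fibroblasts was a choice of this work. Of the alternatives, 8 were planned and 3 were added after the data had been seen. The ratio code was tested on simulated data. Python 3.11.15, numpy 2.4.6, scipy 1.17.1, pandas 2.3.3 and matplotlib 3.10.9 were used. The 3 late libraries were only counted.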

Additional observations from a re-analysis of the deposited data

Results flagged for a closer look

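Of the genes compared in both classes, 4 moved past 2-fold in opposite directions between early KIC and normal pancreas in Pi16 and in Cxcl14 fibroblasts; the difference between the classes was not tested. Des, desmin, had 12.1 CPM in early KIC and 31.3 CPM in normal pancreas in Pi16 fibroblasts (log2 ratio -1.38) and 42.4 and 18.8 CPM in Cxcl14 fibroblasts (1.17). Fgf7, a growth factor for epithelial cells, had 48.2 and 17.5 CPM in Pi16 fibroblasts (1.47) and 34.9 and 70.6 CPM in Cxcl14 fibroblasts (-1.02). Slc11a2, an iron transporter gene, had 18.1 and 4.82 CPM (1.91) and 9.43 and 25.9 CPM (-1.46). Tmem168 had 24.1 and 10.8 CPM (1.15) and 10.4 and 28.2 CPM (-1.45), in the same order of classes and tissues. The Cxcl14 class of normal pancreas held 424887 UMIs in all, so its levels of these genes rest on few counts.

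Cells meeting the rule also occurred in libraries outside the comparisons: 38 of 50 gated fibroblasts in late KIC, 24 of 50 in late KPfC and 56 of 94 in late KPC.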

How the results depend on the processing

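Against 691 genes higher and 477 lower in early KIC members, counts moved by over 1.5 times in the following cases. A strict score (at least 4 UMIs, at most 1 of the opposing score) kept 183 early KIC and 15 normal cells, 13.3% and 3.81% of gated fibroblasts, and gave 366 genes higher and 240 lower, with 55 higher and 62 lower in Pi16 than in Cxcl14 fibroblasts. Thinning to 1000 UMIs gave shares of 45.4% in early KIC and 67.7% in normal pancreas, 433 genes higher and 272 lower, and 101 higher and 48 lower between the classes. A minimum of 5 UMIs gave 1528 higher, 882 lower and 358 lower between the classes. Against the 61 normal cells with Y-linked UMIs alone, 1046 were higher. These settings test fewer or more genes or cells by construction. Of the 691 higher and 477 lower genes, 189 and 130 were called again after thinning, and 88 and 51 with the strict score. Against the Y-linked cells 404 and 196 were called again, and with the minimum of 5 UMIs all were. Without the members that had a macrophage marker UMI, 302 higher and 302 lower genes were called again. The median of the adventitial list stayed between -0.87 and -0.49.

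Some ratios of single genes became negative, each with 0 UMIs in the normal cells left, so that the value is a lower bound set by 3 counts over a small total and gives no direction. Under the strict score the log2 bounds were -0.27 for Rbp7, -0.17 for Il1b, -0.27 for C1qa, -0.85 for Fbn2, -0.59 for Ccnb2, -1.85 for Nfasc, -1.36 for Cpxm2 and -0.85 for Cdca3, and 0.92 for Chl1 (34 UMIs in early KIC, 0 in normal pancreas). The bound for Cdca3 was -1.20 after thinning, and that for Cpxm2 -0.79 with at least 50 score UMIs per 10000. No paired analysis was possible because each group had 1 library.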

Other observations

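Gene lists not described above gave, for early KIC over normal members, 4 of 15 Wnt pathway genes higher by 2-fold or more and 1 lower (median log2 ratio 0.62), 2 of 9 adipogenic genes higher and 1 lower (0.63), 4 of 8 cell cycle genes higher and 0 lower (1.14, and 0.37 to 1.92 over the alternatives), 0 of 16 interferon genes higher and 4 lower (0.15), 2 of 13 hypoxia and glycolysis genes higher and 1 lower (0.17), and 1 of 18 dissociation stress genes higher and 1 lower (-0.37). Over all 8713 genes, 7.93% were higher and 5.47% lower, and the dissociation stress counts were near these shares. The cell cycle UMIs came from few early KIC members: the 10 highest cells held 96.3% of those of Hist1h2ap, and Ccnb2 and Cdca3 were each seen in 18 of 689. All 6 MHC class II genes were higher (2.94), each with a level more than 2-fold higher in the other kept cells of early KIC. Gm26870, an unnamed transcript among the 15 higher genes, had 135 CPM in early KIC members and 0 in normal members, beside 162 and 1.32 CPM in the other kept cells.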
